A study of Mus musculus with 11 samples.

Results

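Activins are dimeric ligands of the TGF-β superfamily. The 10 genes described here encode the parts of this system that a cell secretes or displays: the ligand subunits Inhba, Inhbb and Inha, the receptors Acvr1, Acvr1b, Acvr2a and Acvr2b, and the follistatin family members Fst, Fstl1 and Fstl3. They were taken by gene symbol from a table of 47643 genes, and all 10 were listed. Of the 10, 9 reached at least 1 RPKM (read counts scaled to the length of the gene model and to the mapped total of the library) in at least 2 libraries and were tested among 11979 such genes. Acvr2b did not, and its values are given without a test.

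The libraries were made from mouse skin fibroblasts sorted as live CD140a+ cells that lacked CD45, CD11b and F4/80. The labels name CD3 as a further negative marker, which the study's methods do not list. They came from normal back skin (NS) or from full-thickness excisional wounds at day 5 after injury (5dw). Wild-type (WT) mice were compared with activin-transgenic (Act) mice, in which the keratin 14 promoter drives human INHBA in keratinocytes. Both genotypes were females aged 9 to 12 weeks from a cross that is 50% CD-1 and 50% C57Bl/6. Each library pooled the RNA of 3 mice, with 100 ng of RNA taken for NS and 200 ng for 5dw, so that tissue and RNA input cannot be told apart. WT NS, Act NS and WT 5dw had 3 libraries each and Act 5dw had 2, numbered 1 and 3.

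Activin A is a dimer of the inhibin βA chain encoded by Inhba, and activin B a dimer of the βB chain encoded by Inhbb. The α chain encoded by Inha pairs with either β chain to form inhibins, which oppose activins. Activins bind the type II receptors ACVR2A or ACVR2B, which recruit the type I receptor ACVR1B (ALK4) to phosphorylate SMAD2 and SMAD3. Follistatin (Fst) and FSTL3 wrap around activins in the extracellular space and keep them from their receptors. In skin, activin A is known as a wound-induced growth factor that acts on both keratinocytes and fibroblasts.

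The promoters of these genes differed in their content of CpG dinucleotides. RefSeq windows (GRCm38.p6) were at hand for 9 of the 10 genes, Fst being the exception. Each stretch below holds the 250 bases upstream of the start site, 5′ to 3′ on the strand of the gene, with CpG dinucleotides in capitals. The Inhba stretch lies on the plus strand at chr13:16011601-16011850, that of Acvr1b on the plus strand at chr15:101173822-101174071, and that of Acvr2a on the plus strand at chr2:48813859-48814108. Inhba is shown because its transcript changed most, and both receptors because their transcripts fell together in wounds on the deposited RPKM.
Inhba: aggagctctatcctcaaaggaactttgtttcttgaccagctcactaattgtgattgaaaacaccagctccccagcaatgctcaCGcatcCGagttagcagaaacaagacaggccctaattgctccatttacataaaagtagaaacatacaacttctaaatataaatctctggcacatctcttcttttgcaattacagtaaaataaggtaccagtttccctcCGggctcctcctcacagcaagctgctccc
Acvr1b: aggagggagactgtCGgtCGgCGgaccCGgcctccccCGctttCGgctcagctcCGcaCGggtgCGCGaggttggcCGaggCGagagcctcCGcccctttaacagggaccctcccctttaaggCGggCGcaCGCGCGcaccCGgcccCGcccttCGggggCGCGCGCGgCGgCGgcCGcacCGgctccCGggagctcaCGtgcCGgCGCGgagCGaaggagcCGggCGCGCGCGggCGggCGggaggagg
Acvr2a: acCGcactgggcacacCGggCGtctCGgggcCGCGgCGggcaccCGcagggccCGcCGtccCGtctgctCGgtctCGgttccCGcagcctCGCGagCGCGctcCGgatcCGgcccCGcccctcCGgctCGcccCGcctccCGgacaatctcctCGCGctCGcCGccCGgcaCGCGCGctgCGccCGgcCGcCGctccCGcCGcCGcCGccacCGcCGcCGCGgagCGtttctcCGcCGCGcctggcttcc
The Inhba stretch held 3 CpGs and 43.2% G or C. The Acvr1b and Acvr2a stretches held 42 and 49 CpGs, against a median of 6 over all 32851 windows. Inha had 4 CpGs, and the other 5 members with a window (Inhbb, Acvr1, Acvr2b, Fstl1 and Fstl3) had 16 to 46. The SMAD-binding letters CAGAC were found on either strand in 4 of the 9 stretches, those of Inha, Acvr2a, Acvr2b and Fstl3, and in 42.2% of all windows. The AP-1 letters TGANTCA were found in 0 of 9 and in 6.75% of all windows. These matches describe letters in a window and not sites.

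The sort was checked before the results. Pdgfra, which encodes CD140a, stood at 49.8 to 65.3 RPKM in NS and 29.6 to 37.3 RPKM in 5dw, while Ptprc, which encodes CD45, reached at most 0.0498 RPKM. Cd3e, a T cell gene of the CD3 complex, led the immune list with means of 12.5 RPKM in NS and 74.1 RPKM in 5dw. The median of the gene means of that list was 0.414 RPKM in NS and 1.95 RPKM in 5dw. Of its 9 listed genes, 5 averaged under 1 RPKM in NS and 4 in 5dw. Keratinocyte transcripts were present in every library. The summed RPKM of 14 keratinocyte markers was 1301 to 2332 in WT NS, 1294 to 4808 in Act NS, 130.2 to 1109 in WT 5dw and 279.8 to 337.1 in Act 5dw, and none of the 14 had a mean under 1 RPKM in NS. In wounds, 11 of the 14 fell in each genotype, where 48.8% of all genes fell in WT and 36.4% in Act. Between genotypes in NS, 0 of 14 passed, as against 0.0167% of all genes, and 13 of 14 had a positive log2FC. Of 6 tested dermal papilla markers, 4 fell and 1 rose in WT wounds, beside 48.8% and 9.43% of all genes. In Act wounds 2 fell and 0 rose, beside 36.4% and 9.01%. Their median log2FC was -2.70 in WT and -1.72 in Act, against -0.40 and -0.31 for all genes. Mapped totals ran from 18649321 to 39702138 reads. In bulk libraries, fewer cells of a type and less RNA per cell cannot be told apart.

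**Figure D1:**
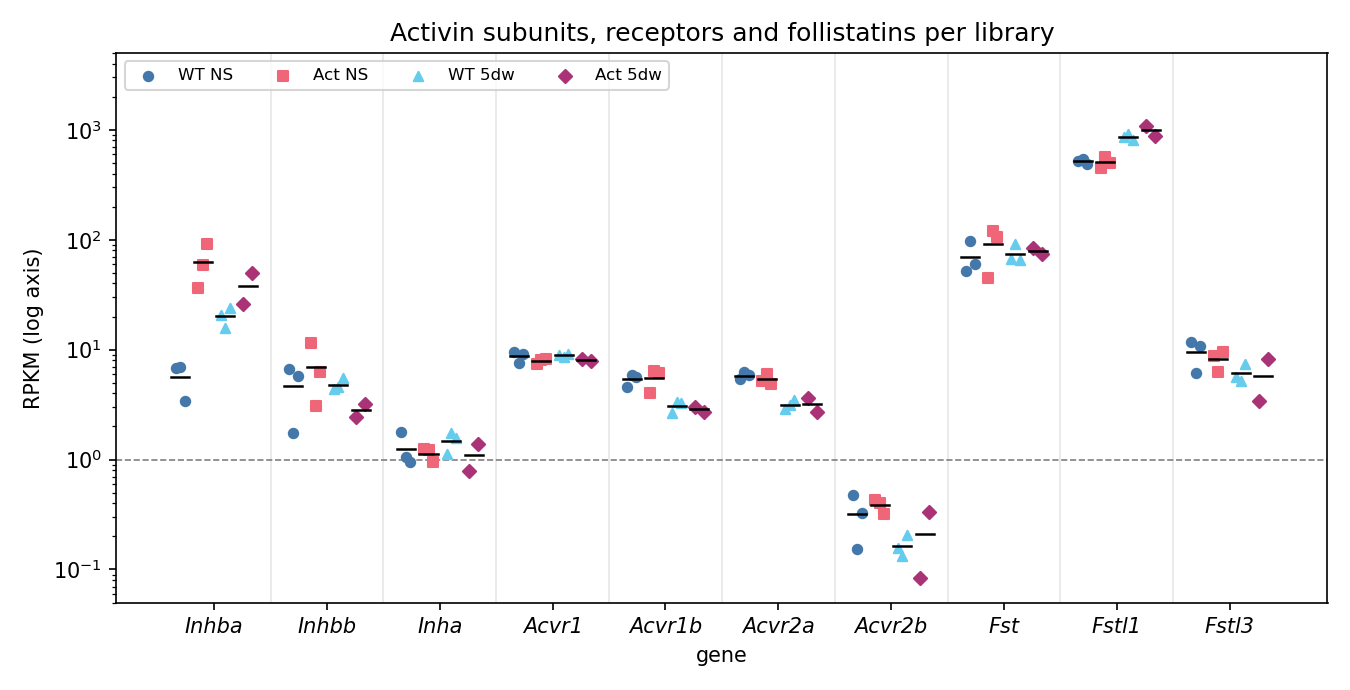
RPKM (log axis) of the 10 genes in each of the 11 libraries, with groups by colour and symbol, short black lines at group means and a dashed line at 1 RPKM. Fstl1 stands at the top in every library, Acvr2b lies under the line throughout, and Inhba spreads most, from 3.4 to 91.1 RPKM.

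The levels covered a wide range within every library, as the plot of RPKM per library shows. RPKM is scaled to the length of the counted gene model. For Inhba, Fst and Acvr2b the matching model held 1980 of 6390, 2337 of 4589 and 1753 of 3928 annotated exon bases. Levels of different genes can therefore be set side by side only roughly. Fstl1, a secreted glycoprotein with a follistatin domain that is related to SPARC, was the highest of the 10 in each group, with means of 516, 506, 863 and 990 RPKM in WT NS, Act NS, WT 5dw and Act 5dw. It ranked 72, 70, 31 and 23 among all genes of the table by group mean. Fst came second in each group at 70.1 to 91.1 RPKM. In WT NS the next genes were Fstl3 at 9.56 RPKM and Acvr1 at 8.77 RPKM, whose ranges overlapped. Acvr2a, Inhba, Acvr1b and Inhbb followed at 5.81, 5.69, 5.36 and 4.7 RPKM, each overlapping its neighbour in the order. Inha followed at 1.26 RPKM, its highest library just above the lowest of Inhbb, and Acvr2b was lowest at 0.318 RPKM. In the other groups Inhba moved up to the third place, at 62.2 RPKM in Act NS, 20.1 RPKM in WT 5dw and 38.2 RPKM in Act 5dw. In Act NS its range overlapped that of Fst, and in both wound groups it did not.

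Among the ligand subunits, Inhba changed most. It stood at 6.75, 6.93 and 3.4 RPKM in the WT NS libraries, at 36.3, 59.1 and 91.1 RPKM in Act NS, at 20.6, 15.8 and 24 RPKM in WT 5dw, and in the Act wounds at 26.2 and 50.2 RPKM. All Act NS libraries lay above all WT NS libraries, all WT 5dw libraries lay above all WT NS libraries, and the ranges of Act NS and Act 5dw overlapped. These RPKM correspond to 200 to 4146 reads per library. The group means were 5.69 ± 1.99 (SD, n = 3), 62.2 ± 27.6 (SD, n = 3), 20.1 ± 4.11 (SD, n = 3) and 38.2 ± 17 RPKM (SD, n = 2), in that order. Inhba lies at chr13:16011851-16031621 on the plus strand (GRCm38, GENCODE M21). The reads recovered from its RPKM matched a gene model of 1980 bases, the length of its exons up to the end of the shorter annotated transcript. Its coding sequence made up 64.4% of that model. The longer transcript adds 4410 bases of 3′ UTR, which this model did not cover. Whether reads of the human transgene entered the values of the mouse gene was not tested.

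Wounding raised Inhba in WT mice. With limma on log2(RPKM + 0.5), the log2 fold change (log2FC) was 1.77 (SE 0.38, 95% confidence interval 0.94 to 2.61, adjusted p = 0.00283), or 3.42-fold, and it passed the test under all 23 alternatives. In Act mice the same comparison gave a log2FC of -0.67 (SE 0.42, 95% confidence interval -1.61 to 0.27), which did not pass (adjusted p = 0.218, limma) and passed under 0 of 23 alternatives. It was -0.21 without Act 5dw 1, -1.13 without Act 5dw 3, -1.01 without Act NS 1 and -0.35 without Act NS 3. The difference between these 2 responses was tested as an interaction term. For Inhba it was -2.45 (SE 0.56, unadjusted p = 0.00147, adjusted p = 0.651, limma), so it did not pass across genes, and its adjusted p lay between 0.294 and 1 over 22 alternatives. Of all genes tested, 0 passed for the interaction (0%), while 3.24% had an unadjusted p under 0.05, and limma-voom on recovered reads also called 0.

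Between genotypes in unwounded skin, Inhba was the only 1 of the 9 tested members that passed, with a log2FC of 3.30 (SE 0.38, 95% confidence interval 2.46 to 4.14, adjusted p = 0.0301, limma), or 9.86-fold, higher in 3 of 3 Act NS libraries. Among all genes 0.0167% passed in this comparison, that is 2 genes. The other was Serpina3b, a serine protease inhibitor named here after its values were seen, at a log2FC of -2.52 (SE 0.26). The direction of the Inhba difference held under all 23 alternatives, with log2FC from 2.98 to 3.78, but the adjusted p passed in 10 of them. With the replicate number as a block, which pairs the NS libraries by number, the adjusted p was 0.105 (limma) at the same log2FC of 3.30. Leaving out 1 library ended the call in 8 of 11 cases. Without WT NS 1, 2 or 3 the adjusted p was 0.0512, 0.147 or 0.119. Without Act NS 2 or 3 it was 0.114 or 0.0624, and without WT 5dw 1, 2 or 3, which enter the estimate of the spread, 0.107, 0.075 or 0.0624. In 5dw the log2FC of Inhba between genotypes was 0.86 (SE 0.42, 95% confidence interval -0.08 to 1.79, adjusted p = 1, limma), with both Act 5dw libraries above all 3 WT 5dw libraries. It was 1.32 without Act 5dw 1 and 0.39 without Act 5dw 3.

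**Figure D2:**
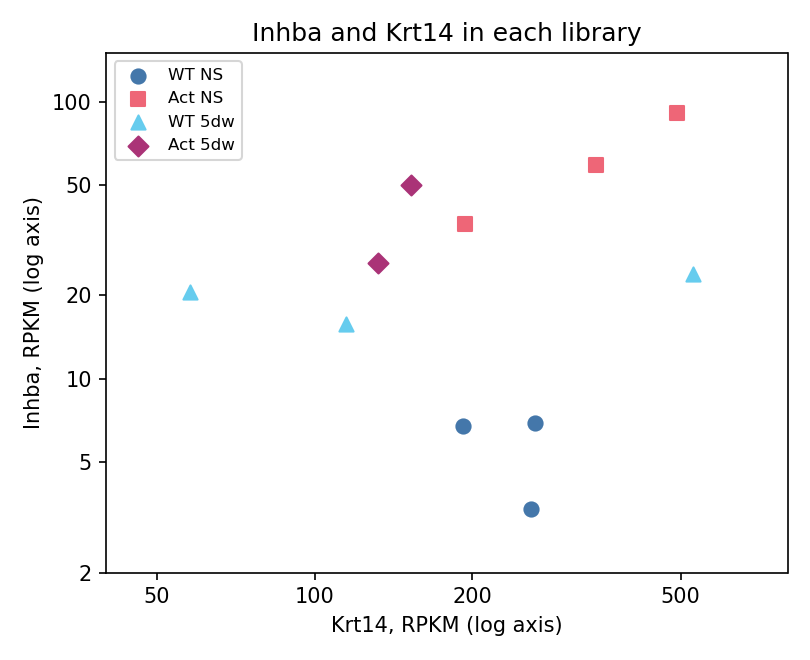
RPKM of Inhba against RPKM of Krt14 (both log axes) in each of the 11 libraries, by group. Among the 3 Act NS libraries those higher in one gene are higher in the other, while the WT 5dw library with the highest Krt14 (528 RPKM) has 24 RPKM of Inhba, close to the other WT 5dw libraries. The WT NS libraries do not share the order seen in Act NS.

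Since keratinocyte transcripts were present and the transgene uses the keratin 14 promoter, Inhba was set beside Krt14 in each library. Krt14 stood at 194, 344 and 493 RPKM in Act NS 1, 2 and 3, so that the library with more Krt14 also had more Inhba. In WT NS 1, 2 and 3 it stood at 192, 264 and 259 RPKM, and Inhba (6.75, 6.93 and 3.4 RPKM) did not follow that order. Per 100 RPKM of Krt14, Inhba came to 18.7, 17.2 and 18.5 RPKM in Act NS and to 3.51, 2.63 and 1.31 RPKM in WT NS. The Act NS values thus spread less per unit of Krt14 (18.1 ± 0.831, SD, n = 3) than in RPKM, and they lay above those of WT NS on this scale too. Against Krt5, which the transgene does not use, the picture was the same, at 21.3 to 22.7 RPKM of Inhba per 100 in Act NS and 1.37 to 3.3 in WT NS. In WT 5dw, Krt14 ran from 57.8 to 528 RPKM, with Inhba between 15.8 and 24 RPKM and no common order. Per 100 RPKM of Krt14, Inhba came to 35.6, 13.8 and 4.54 RPKM in WT wounds and to 19.9 and 32.7 RPKM in Act wounds, so that the wound groups overlapped and the WT wounds spanned the Act NS values. Per 100 RPKM of Krt5 it came to 83.8, 32.8 and 9.49 RPKM in WT wounds and to 47.6 and 76.1 RPKM in Act wounds. When Act NS 3 and WT 5dw 3, the libraries of their groups highest in keratinocyte markers, were left out, the log2FC of Inhba between genotypes in NS was 2.98 (adjusted p = 0.109, limma). The part of keratinocyte RNA in the Inhba level was not tested.

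Inhbb, the βB chain, did not pass in any of the 5 comparisons on deposited RPKM fitted without a replicate block. With the block it passed on wounding in Act, at -1.33 (adjusted p = 0.0264, limma). With block and median-ratio scaling together it did not, at -1.02 (adjusted p = 0.0773, limma). It stood at 6.61, 1.74 and 5.74 RPKM in WT NS, 11.4, 3.1 and 6.22 RPKM in Act NS, 4.35, 4.55 and 5.52 RPKM in WT 5dw, and 2.43 and 3.21 RPKM in Act 5dw. Library 2 was lowest in both NS groups. The log2FC of Inhbb was 0.19 (95% confidence interval -0.90 to 1.28) on wounding in WT and -1.0 (95% confidence interval -2.22 to 0.21) in Act. With 1 library left out the value in Act ran from -1.44 to -0.58. Between genotypes the log2FC was 0.51 in NS (95% confidence interval -0.57 to 1.60). In 5dw it was -0.68 (95% confidence interval -1.90 to 0.53), with both Act 5dw libraries below all 3 WT 5dw libraries. The intervals are wide and leave room for changes of more than 1 log2 unit.

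Inha, the inhibin α chain, was near the lower limit of the tested genes. Its values were 0.958 to 1.77 RPKM in WT NS, 0.944 to 1.25 RPKM in Act NS, 1.13 to 1.75 RPKM in WT 5dw, and 0.793 and 1.4 RPKM in Act 5dw, from 24 to 100 reads. All 4 groups overlapped. The largest log2FC in size was -0.33 (SE 0.24), between genotypes in 5dw, and none passed on the deposited RPKM. With quantile normalization Inha passed on wounding in WT, at 0.69 (adjusted p = 0.0421, limma) against 0.19. The remaining β chains, Inhbc and Inhbe, were listed at no more than 0.0403 RPKM in any library.

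**Figure D3:**
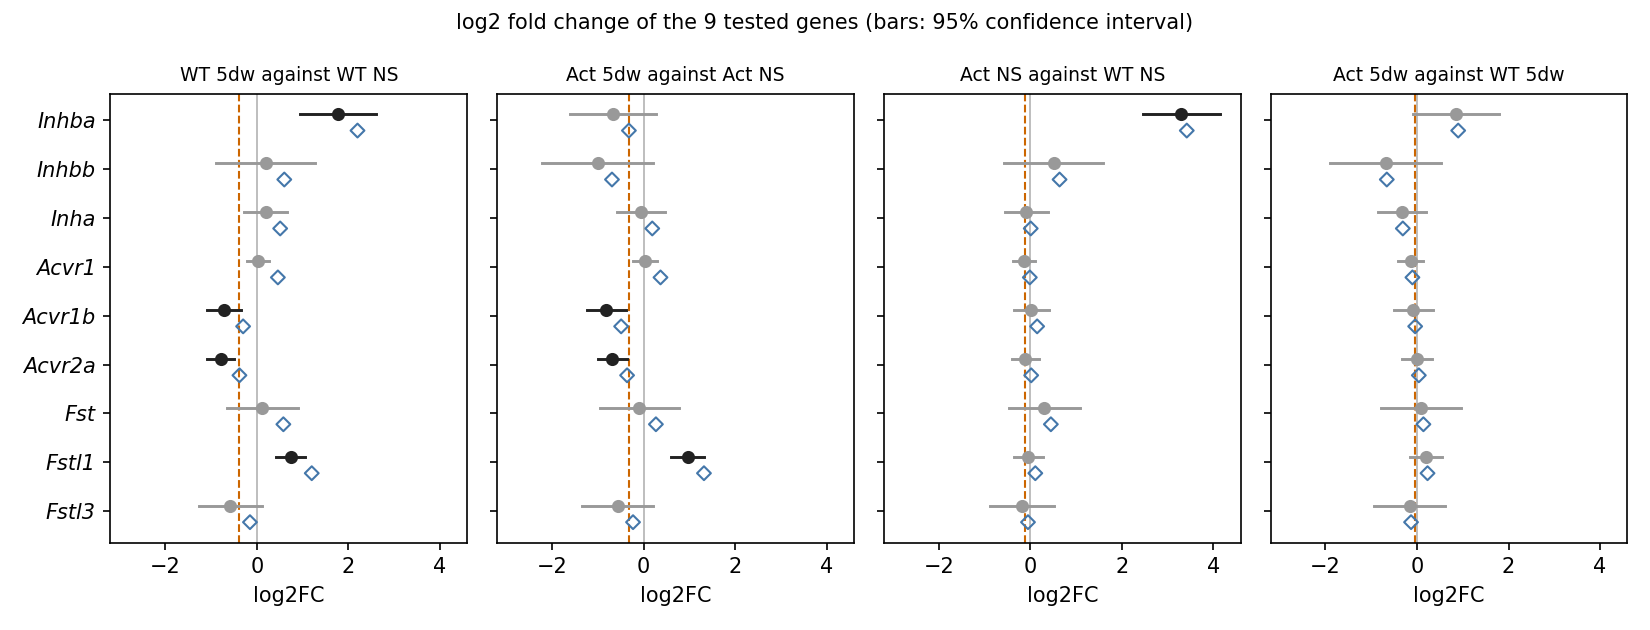
log2FC of the 9 tested genes in the 4 comparisons between groups (x axis, log2 units). Filled points with bars are the estimates on deposited RPKM with 95% confidence intervals, dark where adjusted p was under 0.05 and grey otherwise, open diamonds the estimates after median-ratio scaling, and dashed lines the median log2FC of all tested genes. Inhba and Fstl1 lie to the right of the dashed line in WT wounds on both scales, and in wounds Acvr1b and Acvr2a lie left of 0.

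The receptors were read against the shift of all genes. On the deposited RPKM the median log2FC of the 11979 genes was -0.40 for wounding in WT and -0.31 in Act. After wounding in WT, 58.2% of genes passed, 9.43% higher and 48.8% lower, and in Act 45.4% passed, 9.01% higher and 36.4% lower. When the libraries were rescaled by the median ratio of their genes, these shares became 22.4% higher and 22.2% lower in WT, and 19.9% and 20.8% in Act. Against that background, 4 of the 9 tested members passed in WT (Inhba and Fstl1 higher, Acvr1b and Acvr2a lower) and 3 in Act (Fstl1 higher, Acvr1b and Acvr2a lower). With median-ratio scaling 4 passed in WT (Inhba, Fstl1 and Acvr1 higher, Acvr2a lower) and 3 in Act (Fstl1 and Acvr1 higher, Acvr1b lower).

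Acvr2a, the type II receptor with the higher transcript level, stood at 5.39, 6.22 and 5.83 RPKM in WT NS and at 5.23, 5.97 and 4.88 RPKM in Act NS. In wounds it stood at 2.88, 3.13 and 3.46 RPKM in WT and 3.64 and 2.72 RPKM in Act. Every wound library lay below every NS library. Within a genotype this held for 55% of all genes in WT and 49.8% in Act. The log2FC was -0.79 in WT (SE 0.13, adjusted p = 0.000529, limma) and -0.68 in Act (SE 0.15, adjusted p = 0.00348). Relative to the median of all genes these are -0.39 and -0.37. In WT the call held with median-ratio scaling (log2FC -0.38, adjusted p = 0.0373) and ended with quantile normalization (-0.34, adjusted p = 0.0714). In Act it ended with both, at -0.36 (adjusted p = 0.072) and -0.30 (adjusted p = 0.147), with median-ratio scaling and the replicate block together at -0.33 (adjusted p = 0.107), and without Act 5dw 3 (adjusted p = 0.0507). Acvr2a overlaps Orc4 on the opposite strand, which shared 7.32% of its 31-base words and was listed at 2.19 to 3.67 RPKM.

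Acvr1b, which encodes the type I receptor ALK4, moved like Acvr2a. It stood at 4.54, 5.86 and 5.67 RPKM in WT NS, 4.02, 6.34 and 6.19 RPKM in Act NS, 2.66, 3.31 and 3.25 RPKM in WT 5dw, and 3.04 and 2.72 RPKM in Act 5dw. Again every wound library lay below every NS library, as 55% of all genes did within WT and 49.8% within Act. The log2FC was -0.71 in WT (SE 0.17, adjusted p = 0.0046, limma) and -0.81 in Act (SE 0.19, adjusted p = 0.00561). With median-ratio scaling it was -0.30 in WT (adjusted p = 0.0993) and -0.49 in Act (adjusted p = 0.0269). On that scale the replicate block restored the call in WT, at -0.30 (adjusted p = 0.0418, limma). With quantile normalization neither passed, at -0.25 (adjusted p = 0.182) and -0.43 (adjusted p = 0.0514). Relative to the median of all genes the log2FC was -0.31 in WT and -0.50 in Act.

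Acvr1, a type I receptor better known for BMP signalling that also binds activin A, was the steadiest of the members. Its 11 values lay between 7.48 and 9.6 RPKM, a ratio of 1.28 from lowest to highest. On wounding the log2FC was 0.03 in both genotypes (95% confidence intervals -0.22 to 0.27 in WT and -0.24 to 0.30 in Act). On the scale of median-ratio values it rose, by a log2FC of 0.46 in WT (adjusted p = 0.00292, limma) and 0.37 in Act (adjusted p = 0.0185). A ratio within a library does not depend on any single scaling factor for that library. Acvr1b came to 0.473, 0.768 and 0.625 of Acvr1 in WT NS and 0.538, 0.793 and 0.758 in Act NS, against 0.295, 0.385 and 0.357 in WT wounds and 0.368 and 0.346 in Act wounds. All 5 wound libraries lay below all 6 NS libraries in this ratio, which was computed after the values were seen and is given without a test. By log2FC on wounding, Acvr1 stood above 78.9% of all tested genes in WT and 74.9% in Act. Most genes thus fell relative to Acvr1, and a lower ratio is not particular to Acvr1b.

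Acvr2b, the second type II receptor, was weakly expressed. It was listed at 0.153 to 0.475 RPKM in WT NS, 0.323 to 0.429 RPKM in Act NS, 0.133 to 0.206 RPKM in WT 5dw, and 0.0834 and 0.334 RPKM in Act 5dw. These come from 3 to 21 reads, and the exact 95% Poisson interval of the highest, 0.294 to 0.726 RPKM, overlapped those of 7 of the other 10 libraries. Acvr2a made up 89.1 to 97.8% of the summed RPKM of both type II receptors, with Acvr2b counted over 1753 of its 3928 exon bases. Between genotypes, 0 of the 3 tested receptors passed in NS or in 5dw (0.0167% of all genes in NS and 0.0334% in 5dw). The largest receptor log2FC in size was -0.14, for Acvr1 in both tissues (SE 0.11 in NS and 0.12 in 5dw).

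Fst, which encodes follistatin, did not pass in any of the 5 comparisons on the deposited scale. It stood at 52.5, 97.1 and 60.6 RPKM in WT NS, 45, 121 and 107 RPKM in Act NS, 67.5, 90.9 and 65.1 RPKM in WT 5dw, and 83.6 and 74 RPKM in Act 5dw. All groups overlapped, and library 2 was the highest of its group in each of the 3 groups that have one. The log2FC on wounding was 0.12 in WT (95% confidence interval -0.66 to 0.90) and -0.09 in Act (-0.96 to 0.78). With median-ratio scaling the WT value was 0.58 (adjusted p = 0.166, limma), and with the replicate block as well it passed at 0.58 (adjusted p = 0.0455). The log2FC between genotypes was 0.31 in NS (-0.47 to 1.08) and 0.09 in 5dw (-0.78 to 0.96). Fst is on chr13:114452290-114458951, minus strand, and its reads matched a model of 2337 bases. Of its 31-base words 2.25% were shared, with 110 genes.

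Fstl3 was lower in wounds by mean, with libraries that overlapped. It stood at 11.8, 6.16 and 10.8 RPKM in WT NS, 8.82, 6.28 and 9.47 RPKM in Act NS, 5.59, 5.24 and 7.39 RPKM in WT 5dw, and 3.41 and 8.14 RPKM in Act 5dw. The log2FC on wounding was -0.58 in WT (SE 0.31, adjusted p = 0.133, limma) and -0.56 in Act (SE 0.35, adjusted p = 0.213). With the replicate number as a block it passed in WT, at -0.58 (SE 0.22, adjusted p = 0.04), in a fit that called 60.9% of all genes. It also passed in WT without WT NS 2 (adjusted p = 0.0389, limma). In Act the log2FC was -1.13 without Act 5dw 3 and 0.01 without Act 5dw 1. With median-ratio scaling the log2FC was -0.15 and -0.23 and did not pass. Prss57, on the opposite strand, shared 46.7% of the 31-base words of Fstl3 and was listed at 0.186 to 1.23 RPKM. Sequencing was stranded, but the sources used here do not state whether strand entered the counting.

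Fstl1 rose on wounding in both genotypes. It stood at 518, 542 and 489 RPKM in WT NS, 447, 571 and 500 RPKM in Act NS, 864, 911 and 814 RPKM in WT 5dw, and 1093 and 887 RPKM in Act 5dw. Every wound library lay above every NS library. Within a genotype this held for 11.4% of all genes in WT and 14.4% in Act. The log2FC was 0.74 in WT (SE 0.14, adjusted p = 0.00139, limma) and 0.97 in Act (SE 0.16, adjusted p = 0.000849), or 1.67-fold and 1.95-fold, and both passed under all 23 alternatives. Relative to the median of all genes these are 1.14 and 1.27. The interaction of 0.23 (SE 0.22) did not pass (adjusted p = 0.999, limma). Of the 31-base words of Fstl1, 8.45% were shared, with 72 genes.

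Counted over the tested members, 2 had WT wound libraries that all lay above the WT NS libraries and 2 had them all below, where 11.4% and 55% of all genes did. In Act the counts were 1 above and 2 below, against 14.4% and 49.8% of all genes. Between genotypes in NS, Inhba alone had all Act libraries above all WT libraries (0.993% of all genes), and 0 members had them all below (7.98%). Between genotypes in 5dw the Act libraries lay above all WT libraries for Inhba (7.87% of all genes), and below them for Inhbb and Acvr1 (15.2%). In 5dw, 0 of 9 members passed limma and limma-voom alike, and 0 had an unadjusted p under 0.05, where 3.21% of all genes did. The 4 genes that passed there were Atp5j2, Cox8a, Lsm7 and Rps6-ps4, named after their values were seen. The median log2FC of the 9 members was 0.12 on wounding in WT against -0.40 for all genes, and -0.56 in Act against -0.31.

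**Figure D4:**
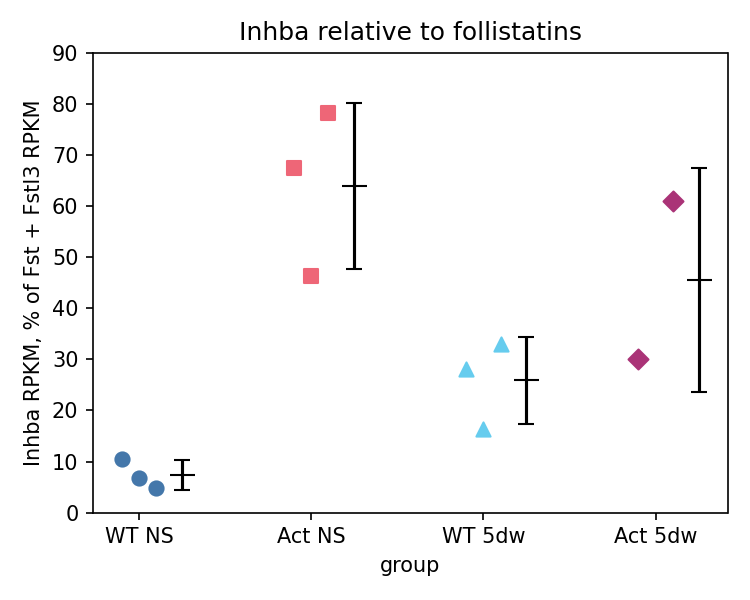
Inhba RPKM as a percentage of the summed RPKM of Fst and Fstl3 in each library, by group, with mean and SD at the right of each group. The 3 WT NS libraries lie at 10.5% or less and the 3 Act NS libraries at 46.3% or more.

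The ligand subunit was also set against the transcripts of its secreted binding proteins within each library, where a single scaling factor cancels. Inhba came to 10.5, 6.72 and 4.76% of the summed RPKM of Fst and Fstl3 in WT NS, 67.4, 46.3 and 78.3% in Act NS, 28.1, 16.4 and 33.1% in WT 5dw, and in the Act wounds 30.1 and 61.1%. In no library did it exceed them, on RPKM from models that left out exon bases of Inhba and Fst. The groups did not overlap between WT NS and Act NS, nor between WT NS and WT 5dw. Compared with WT NS, the mean log2 ratio was 3.14 higher in Act NS and 1.82 higher in WT 5dw, each with an exact two-sided permutation p = 0.1, the smallest that 3 against 3 libraries allow, and 0.2 after adjustment over the 4 comparisons. Act 5dw differed by -0.54 from Act NS and by 0.79 from WT 5dw (exact permutation p = 0.4 for both, smallest possible 0.1). Without Act 5dw 1 these became -0.03 and 1.30, and without Act 5dw 3 they became -1.05 and 0.28. Fst made up 81.7 to 96.1% of the summed follistatins. Both comparisons with WT NS share its libraries.

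The other genes of the axis were taken from a list of 28, of which 15 were tested. On wounding in WT, 3 rose, 8 fell and 4 did not pass, where 9.43% of all genes rose and 48.8% fell, and the median log2FC was -0.48 against -0.40 for all genes. In Act 3 rose, 6 fell and 6 did not pass, beside 9.01% and 36.4% of all genes. With median-ratio scaling 5 rose and 3 fell in each genotype, beside 22.4% and 22.2% of all genes in WT and 19.9% and 20.8% in Act. Pcsk5, one of the proprotein convertases that cleave TGF-β superfamily precursors, rose from 8.58 ± 1.81 to 51.2 ± 9.01 RPKM (SD, n = 3 each) in WT, a log2FC of 2.51 (adjusted p = 6.17e-06, limma). It rose in Act by 2.65 (adjusted p = 1.51e-05). Pcsk6, its close relative, fell from 32.7 ± 9.04 to 7.94 ± 4.14 RPKM in WT (log2FC -2.05, adjusted p = 0.000503), with a log2FC of -1.5 in Act. Bmpr1b, a BMP type I receptor, went from 0.0573 to 1.92 RPKM in WT by mean, and Gdf11, an activin-like ligand, rose from 2.26 to 3.88 RPKM. Igsf1 and Amhr2, which encodes the receptor for anti-Müllerian hormone, had a log2FC of -1.68 and -1.29 in WT. Bmpr1b was under 1 RPKM in every NS library, and Igsf1 and Amhr2 in every wound library, so these 3 were tested only because of the tissue where they were high and had to differ. The counts above include them, 1 among those that rose and 2 among those that fell in each genotype. The type I receptor Acvr1c and the ligands Nodal and Mstn were listed at no more than 0.103 RPKM in any library. Between genotypes 0 of the 15 passed, in NS or in 5dw, beside 0.0167% and 0.0334% of all genes.

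Downstream, 15 of 16 genes of the SMAD2/3 branch were tested. In WT wounds 1 rose, 10 fell and 4 did not pass, where 9.43% of all genes rose and 48.8% fell, and the median log2FC was -0.61 against -0.40 for all genes. In Act 1 rose, 8 fell and 6 did not pass, where 9.01% of all genes rose and 36.4% fell, with a median of -0.43 against -0.31. With median-ratio scaling 2 rose and 3 fell in WT, where 22.4% and 22.2% of all genes did. In Act 2 rose and 4 fell on that scale, where 19.9% and 20.8% did. Pmepa1, a target and feedback inhibitor of SMAD2/3, was the riser in WT, from 17 ± 4.15 to 28.3 ± 1.37 RPKM (SD, n = 3 each, log2FC 0.75, adjusted p = 0.00173, limma), and in Act it rose by 0.49 (adjusted p = 0.0335). Among those that fell were the co-repressor genes Tgif2 and Tgif1, with a log2FC of -1.61 and -0.95 in WT, and Zfyve9, which encodes the SMAD anchor SARA, at -1.06. These 3 also fell in Act and with median-ratio scaling. Tgif2 was under 1 RPKM in every wound library, so that it was tested only through NS and had to differ. Between genotypes 0 of 15 passed, beside 0.0167% of all genes in NS and 0.0334% in 5dw. The log2FC of Pmepa1 was 0.22 (SE 0.15) in NS and -0.03 (SE 0.17) in 5dw.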

How the data were processed

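Per the labels and the study's methods, poly-A RNA was sequenced as stranded 100 bp reads on an Illumina HiSeq and mapped to GRCm38 in CLC Genomics Workbench, and the authors deposited 1 table of RPKM per gene and library, with a second Act 5dw library already excluded by them. The submitters' processing notes also name edgeR, which was not used here. The handling of multi-mapping reads is not given in the sources used. Low RPKM values were whole multiples of 1 read, and whole reads were recovered for 99.99% of 11979 genes (within 0.01 reads), 4602 of them with a gene length other than that of GENCODE M21.

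From the RPKM, log2(RPKM + 0.5) was fitted with limma 3.58.1 in R 4.3.3 (trend, robust) on genes of at least 1 RPKM in at least 2 libraries, with 1 mean for each of the 4 groups over 11 libraries (7 residual degrees of freedom). P-values were adjusted by Benjamini-Hochberg within each of 5 comparisons over all genes tested and called at 0.05. Fold changes on this scale understate those of low genes. The log2 ratio of Inhba to Fst plus Fstl3 used a pseudocount of 0.1 RPKM and an exact two-sided permutation test, and the percentages and other ratios printed used no pseudocount and no test. Intervals from reads cover counting error only. The fit was tested on simulated data. Replicate pairs of the same group differed by far more than counting error (chi-square per degree of freedom of 38 or more). The labels give the groups shared replicate numbers. Across genes, deviations of same-numbered libraries from their group means correlated at 0.11 to 0.19 between WT NS and WT 5dw. Between WT NS and Act NS they correlated at 0.33 to 0.55. The numbers were therefore read as pairs for these groups in the blocked fit, while the main fit is unpaired. Differently numbered libraries were not compared, and the study pooled RNA across sorting sessions, so whether the numbers mark a batch was not tested. With 2 pairs, the comparisons with Act 5dw (0.02 and 0.14, -0.08 and 0.19) were not read as paired. Each library is a pool of mice, so p-values measure the spread between pools.

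Named were all 10 members, list genes called between genotypes or by interaction, the 3 highest and 3 lowest called genes of each list in WT wounds, and the 3 genes nearest to any member spanning more than 2 log2 units. Named outside this rule, after their values were seen, were Serpina3b, Atp5j2, Cox8a, Lsm7, Rps6-ps4, Spock1 and the weakly expressed Inhbc, Inhbe, Acvr1c, Nodal and Mstn. The members and lists were chosen with earlier results of these data known. Alternatives were other pseudocounts, filters, scalings, a replicate block, limma-voom on recovered reads, fits of the compared groups only, and libraries left out. Chosen after seeing the data were the block with median-ratio scaling together, the fit without Act NS 3 and WT 5dw 3, the ratios of Inhba to Krt14 and Krt5, and that of Acvr1b to Acvr1.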

Additional observations from a re-analysis of the deposited data

How the results depend on the processing

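With 2 or 3 pooled libraries a group, the confidence intervals of Inhbb, Fst and Fstl3 span more than 1 log2 unit, and the direction of small changes depends on the scaling. The members called on wounding in WT numbered 4 to 6 over all alternatives. Inha was not tested with the filter of 5 RPKM, and the fit of the compared groups alone cannot give the interaction. Of 1021 member log2FC under alternatives, 913 kept direction and side of the threshold, 21 lost the call, 13 gained it and 74 changed sign. No member that passed changed sign. All other values below belong to differences that did not pass in either fit unless stated, and the cause was not tested. Without a filter, 24 genes passed between genotypes in 5dw, 10 in NS and 6 for the interaction. With at least 5 RPKM, where 6596 genes were tested, 3767 passed on wounding in WT, 3098 in Act and 1 between genotypes in NS. With limma-voom, 0 genes passed between genotypes in NS and 2 in 5dw, and with either other scaling 2 passed in 5dw.

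The replicate block gave 5 members called on wounding in Act (Inhbb at -1.33, adjusted p = 0.0264, and Fstl3 at -0.74, adjusted p = 0.0332, were added, by limma, in a fit that called 47.7% of all genes), 0 between genotypes in NS and 1 gene for the interaction. It changed no other member call than these, Inhba and Fstl3. In the comparisons with Act 5dw the numbers were not read as pairs. With block and median-ratio scaling together 0 members and 1 gene passed between genotypes in NS, and 6 members on wounding in WT (Inhba, Acvr1, Acvr1b, Acvr2a, Fst and Fstl1), in a fit that called 48.4% of all genes. With only the compared groups, 0 members and 0 genes passed between genotypes in NS, as without Act NS 3 and WT 5dw 3 together (1 gene for the interaction). Without both NS libraries numbered 1, 11 genes passed between genotypes in NS and 1 for the interaction.

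Signs turned as follows. On wounding in Act, Inha came to 0.19 with median-ratio scaling, 0.37 with quantile normalization and 0.21 with block and ratio, Fst to 0.27, 0.06 and 0.49 with these, 0.14 with the block and 0.09 without the 2 keratinocyte-rich libraries, and Acvr1 to -0.01 with the block and without the NS libraries numbered 1. Without the latter, Fst on wounding in WT came to -0.06. Between genotypes in NS, Inha came to 0.01 with ratio scaling alone or with the block, 0.06 without the libraries numbered 1 and 0.00 without the keratinocyte-rich ones, Acvr1b to -0.07 without these, Acvr2a to 0.02 with ratio scaling alone or with the block, and Fstl1 to 0.11 in both of those, 0.02 with quantile normalization and 0.05 without the libraries numbered 1. In 5dw, Acvr1b came to 0.03 with block and ratio and Acvr2a to -0.01 with limma-voom. For the interaction, Acvr1 came to -0.09 (ratio), -0.05 (quantile), -0.03 (block), -0.13 (both) and -0.10 (without NS libraries numbered 1), Fstl3 to -0.08, -0.04, -0.16, -0.26 and -0.09 under the same settings, Fst to 0.01 with the block and Acvr1b to 0.03 without the keratinocyte-rich libraries.

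With 1 library left out, genes called ran from 3454 to 5853 on wounding in Act, 0 to 4 between genotypes in NS, 0 to 5 in 5dw and 0 to 2 for the interaction, and members called in NS from 0 to 1. On wounding in Act the log2FC ran from -0.01 to 0.06 for Acvr1, -0.53 to 0.18 for Fst, -1.13 to 0.01 for Fstl3 and -0.33 to 0.22 for Inha. On wounding in WT it ran from -0.06 to 0.09 for Acvr1, -0.06 to 0.38 for Fst and -0.33 to 0.50 for Inhbb. Between genotypes in NS it ran from -0.08 to 0.22 for Acvr1b, -0.13 to 0.05 for Fstl1, -0.21 to 0.11 for Inha and -0.01 to 0.95 for Inhbb, and in 5dw from -0.18 to 0.18 for Acvr2a and -0.74 to 0.41 for Fstl3. For the interaction it ran from -0.06 to 0.09 for Acvr1, -0.29 to 0.01 for Acvr1b, -0.07 to 0.29 for Acvr2a, -0.65 to 0.06 for Fst, -0.56 to 0.59 for Fstl3 and -0.52 to 0.04 for Inha.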

Other observations

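Proteins that carry a follistatin domain without belonging to the activin axis were counted as a further list. Of 13 genes 12 were tested. On wounding 2 rose, 7 fell and 3 did not pass in each genotype, with a median log2FC of -0.95 in WT and -0.85 in Act, against -0.40 and -0.31 for all genes. Of all genes 9.43% rose and 48.8% fell in WT, and 9.01% rose and 36.4% fell in Act. With median-ratio scaling 3 rose and 6 fell in WT, and 2 rose and 7 fell in Act, beside 22.4% and 22.2% of all genes in WT and 19.9% and 20.8% in Act. The risers were Sparc, a matricellular collagen-binding glycoprotein, from 1914 ± 636 to 4978 ± 270 RPKM in WT (SD, n = 3 each, log2FC 1.43, adjusted p = 0.000342, limma), and Tmeff1, a transmembrane protein, from 2.75 to 10 RPKM by mean (log2FC 1.70). Those that fell most in WT were Spock2 (log2FC -3.07), Sparcl1, from 119 ± 3.99 to 15.9 ± 4.59 RPKM (log2FC -2.90, adjusted p = 1.21e-06), and Smoc1 (log2FC -1.91). In Act wounds Sparc and Tmeff1 rose by 1.57 and 2.58 and the 3 others fell. Smoc1, Spock1 and Spock2, which are 3 of the 7 that fell, were under 1 RPKM in every wound library, so that they were tested only through NS and had to differ. Between genotypes 0 of 12 passed in NS or 5dw, beside 0.0167% and 0.0334% of all genes.

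Of the tested members, Inhba and Inhbb spanned more than 2 log2 units over the 11 libraries. The genes with the pattern nearest to Inhba were Il24, Nppb and Gm13443, at a root mean square difference of centred log2(RPKM + 0.5) of 0.89, 0.99 and 1.00, where Inhba itself lay 1.34 from its mean. Il24, an IL-10 family cytokine, averaged 0.27 RPKM in WT and 1.73 RPKM in Act normal skin, and 1.22 RPKM in WT and 0.609 RPKM in Act wounds. The nearest to Inhbb were Phlda3, Pdgfrb and Gm37352, at 0.38, 0.39 and 0.39, where Inhbb lay 0.64 from its mean. These are descriptions over 11 libraries that share their groups.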
